A study of Homo sapiens with 9 samples.

Results

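The mitochondrial respiratory chain and ATP synthase are built from many nuclear-encoded subunits, and 71 of these genes were followed here among the 12165 genes measured. Members were chosen by name: genes of single-gene probe sets whose current symbol starts with NDUFA, NDUFB, NDUFC, NDUFS, NDUFV, UQCR, COX4I, COX5, COX6, COX7, COX8 or ATP5, together with SDHA, SDHB, SDHC, SDHD and CYC1, leaving out pseudogenes and the NDUFAF assembly factors. The letters also take NDUFB2-AS1, an antisense RNA that encodes no subunit, which was set aside. The 71 members comprised 31 genes of complex I, 3 of complex II, 7 of complex III, 13 of complex IV and 17 of complex V. Of 89 protein-coding genes in the RefSeq table that the names would take, 18 were not analysed here, SDHB among them, and no subunit encoded by mitochondrial DNA was analysed here.

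The cells were LNCaP, a human prostate cancer line that responds to androgen through a mutated androgen receptor. Every culture was first starved of steroid for 2 days in charcoal-stripped serum. In the vehicle group the cells received ethanol and DMSO, in the androgen group DMSO and 1 nM R1881, a synthetic androgen, and in the third group 1 nM R1881 with 1.25 µM celastrol, a plant triterpenoid. Each group held 3 arrays described as biological replicates, and p-values measure the spread between these arrays only. Treatment lasted 24 h by most labels, but the titles of the 3 androgen arrays give 6 h. This conflict touches every comparison with those arrays and was not settled by the data.

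Complexes I and II pass electrons from NADH and succinate to ubiquinone, complex III passes them to cytochrome c, and complex IV passes them to oxygen. Complexes I, III and IV pump protons, and complex V, the ATP synthase, uses the proton gradient to make ATP. Some subunits carry the redox centres and others, the accessory or supernumerary subunits, build and stabilise the complex. Several have tissue isoforms, such as the muscle forms COX6A2 and COX7A1. Nuclear respiratory factor 1 (NRF1), ETS-family factors such as GABP, YY1, estrogen-related receptors (ERR) and the coactivator PGC-1α (PPARGC1A) are the textbook regulators of these genes.

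The values are linear intensities, 1 per probe set and array, and each gene was read from its brightest probe set. Of the 71 members, 68 lay among the brightest 25% of genes by mean log2 intensity, while COX6A2 and COX7A1 lay among the dimmest 25%. Intensities of different probe sets do not compare the abundance of different genes. Vehicle array 3 stood apart, with a standard deviation of its log2 deviations from the group mean of 0.31 over all genes, against 0.12 to 0.20 on the other 8 arrays. The luminal markers KLK3, KRT8, KRT18 and HOXB13 were measured with a summed intensity of 10695 to 32447 per array. The 18 measured markers of basal, fibroblast, endothelial, immune and muscle cells all lay below the median gene, with mean log2 intensities of 4.76 to 6.03. The submitters' processing (RMA) scales arrays to each other, so that a change in total RNA per cell cannot be told apart from none. The median intensity over genes still differed between arrays. It was 121.7, 122.3 and 105.4 with vehicle, 119.8, 114.4 and 107.3 with androgen, and 104.4, 116.5 and 119.1 with both agents.

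The promoters of the members bear on whether the set shares control elements, so windows of 250 bases before the annotated start were searched for 6 short motifs on both strands. RefSeq windows (GRCh38.p14) were listed for 59 of the 71 members, 72 windows in all. The letters GCATGCG, the core of the NRF1 site, were in 18.1% of member windows, in 3.39% of all 35116 windows and in 4.07% of those of protein-coding genes. CCGGAAG, the ETS core, was in 22.2%, 8.52% and 10.7%, and AAGGTCA, the ERR half-site, in 9.72%, 3.44% and 2.87%. AAGATGG, a YY1 site, was in 8.33%, 3.70% and 3.36%. The GC box GGGCGG was in 56.9%, 42.6% and 53.7%, and CCAAT in 31.9%, 32% and 32.7%. Counted per gene, the shares of members and of protein-coding genes were 20.3% and 5.43% for NRF1, 25.4% and 14% for ETS, and 10.2% and 3.83% for ERR. They were 8.47% and 4.34% for YY1, 59.3% and 62.1% for the GC box, and 33.9% and 40.2% for CCAAT. These are counts of letters, not of bound sites, and windows of 1 gene can overlap.

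Windows are printed for the 4 genes whose calls held under every alternative tried (COX7A2L, NDUFA10, NDUFB4 and SDHA), and for COX5B and COX6A1, 2 members that passed no test and hold both NRF1 and ETS letters, chosen after their values were seen. Sequences run 5′ to 3′ on the strand of the gene, and capitals mark the letters of the 6 motifs on either strand.
COX7A2L, chr2:42368958-42369207, minus strand: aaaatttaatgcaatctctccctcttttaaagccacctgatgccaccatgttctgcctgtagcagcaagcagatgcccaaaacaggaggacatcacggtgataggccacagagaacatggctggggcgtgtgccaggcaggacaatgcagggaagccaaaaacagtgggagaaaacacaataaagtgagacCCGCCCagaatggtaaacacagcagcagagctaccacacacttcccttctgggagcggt
NDUFA10, chr2:240025343-240025592, minus strand: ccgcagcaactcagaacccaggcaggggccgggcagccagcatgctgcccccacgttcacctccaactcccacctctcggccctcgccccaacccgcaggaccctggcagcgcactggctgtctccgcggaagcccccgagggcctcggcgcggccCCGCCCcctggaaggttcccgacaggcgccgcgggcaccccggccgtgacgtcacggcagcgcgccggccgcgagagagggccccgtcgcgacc
NDUFB4, chr3:120596086-120596335, plus strand: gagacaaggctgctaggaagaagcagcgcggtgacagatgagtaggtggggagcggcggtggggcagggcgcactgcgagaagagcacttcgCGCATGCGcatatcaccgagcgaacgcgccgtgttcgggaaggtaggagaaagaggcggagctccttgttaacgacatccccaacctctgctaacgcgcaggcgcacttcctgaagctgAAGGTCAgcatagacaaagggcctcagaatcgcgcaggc
SDHA, chr5:218070-218319, plus strand: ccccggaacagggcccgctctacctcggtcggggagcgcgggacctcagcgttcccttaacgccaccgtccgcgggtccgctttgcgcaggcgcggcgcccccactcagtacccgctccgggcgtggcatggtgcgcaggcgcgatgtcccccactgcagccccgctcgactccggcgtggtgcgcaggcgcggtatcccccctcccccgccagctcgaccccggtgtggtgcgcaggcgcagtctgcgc
COX5B, chr2:97645812-97646061, plus strand: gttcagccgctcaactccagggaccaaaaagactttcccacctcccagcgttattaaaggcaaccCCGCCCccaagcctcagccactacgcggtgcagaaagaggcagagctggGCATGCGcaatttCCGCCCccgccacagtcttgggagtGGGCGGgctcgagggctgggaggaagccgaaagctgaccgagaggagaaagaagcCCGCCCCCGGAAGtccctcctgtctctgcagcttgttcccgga
COX6A1, chr12:120437863-120438112, plus strand: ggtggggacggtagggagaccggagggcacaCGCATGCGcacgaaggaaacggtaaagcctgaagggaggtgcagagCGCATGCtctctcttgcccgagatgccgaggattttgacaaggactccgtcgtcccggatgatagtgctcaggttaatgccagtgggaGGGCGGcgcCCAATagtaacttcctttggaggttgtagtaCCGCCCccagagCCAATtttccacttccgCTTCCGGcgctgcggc
The printed COX7A2L window and that of NDUFA10 each held 1 GC box, 59 and 94 bases before the start. COX7A2L has 2 listed windows, and the one not printed held CCAAT and no GC box. NDUFB4 held overlapping NRF1 letters on both strands 158 and 157 bases before the start and the ERR letters at 39 bases. None of the 6 motifs was in the SDHA window. COX5B held NRF1 letters at 136 bases, ETS letters at 37 bases and 4 GC boxes, and COX6A1 held NRF1 letters at 219, 218 and 173 bases, where the first 2 overlap, and ETS letters at 16 bases. The windows of NDUFA9, NDUFAB1, NDUFB6, NDUFS4 and COX7B, which also passed no test, held none of the 6 motifs. Those of NDUFV1 and ATP5PO, which were called in at least 1 comparison, held none either.

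Expression was compared with limma, a linear model over all 9 arrays, with Benjamini-Hochberg adjustment of p-values across all 12165 genes. Rose and fell are used for an adjusted p under 0.05, and differences are log2 ± standard error. Androgen against vehicle asks what the hormone does in these starved cells, androgen plus celastrol against androgen what celastrol adds, and androgen plus celastrol against vehicle gives their joint difference. The 3 comparisons share arrays, so their values are not independent of each other.

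Few subunits passed the threshold in the fit used here, and all measured differences were small. With androgen, none of the 71 members rose and 2 fell, NDUFB4 and NDUFV1, which is 2.82% of members; over all genes 13% were called, 7.17% rising and 5.84% falling, and over the brightest 25% of genes 27.7%. With celastrol added to androgen, 1 member rose, COX7A2L, and none fell, which is 1.41% of members against 16.2% of all genes, 9% rising and 7.24% falling, and 33.8% of the brightest genes. With both agents against vehicle, COX7A2L rose and 10 members fell, which is 15.5% of members against 23.3% of all genes, 13.3% rising and 10% falling, and 46.3% of the brightest genes. At an unadjusted p under 0.05 in either direction, limma found 7, 7 and 21 members in the 3 comparisons, which is 9.86%, 9.86% and 29.6%, beside 23.4%, 26.8% and 34.5% of all genes. No test of the members against other genes was made.

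The number of falls against vehicle changed with the scaling and when an array was left out. For both agents it was 10 in the fit used here, 22 after quantile normalization, 20 after cyclic loess and 3 after subtraction of each array's median, with 1, 1 and 2 rises. It was 2 without vehicle array 1, 7 without vehicle array 3, and 4 to 6 without any 1 of the other 7 arrays. Leaving out an androgen array does not change the differences in this comparison, only the error estimate and its degrees of freedom. For celastrol added to androgen the split of 1 rise and no fall became 1 and 3 after quantile normalization and 1 and 1 after cyclic loess. For androgen alone the 2 falls became 5 after either of these normalizations, 1 after median subtraction and 1 with the replicate number as a block.

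The sizes were small in every comparison. Member differences ran from -0.38 (NDUFB4) to 0.29 (COX7A2L) with androgen, from -0.25 (ATP5MC2) to 0.36 (COX7A2L) with celastrol added, and from -0.54 (SDHA) to 0.66 (COX7A2L) with both agents against vehicle. No member differed by over 1 on the log2 scale, a doubling, where 3.06%, 2.60% and 4.84% of all genes did. The 95% intervals of all 71 members lay inside -1 to 1 in each comparison, as did those of 90%, 90% and 84.3% of all genes. For 62 members the intervals of all 3 comparisons also lay inside -0.5 to 0.5. The median standard error of the members was 0.08, against 0.13 over all genes and 0.09 over the brightest 25%.

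**Figure D1:**
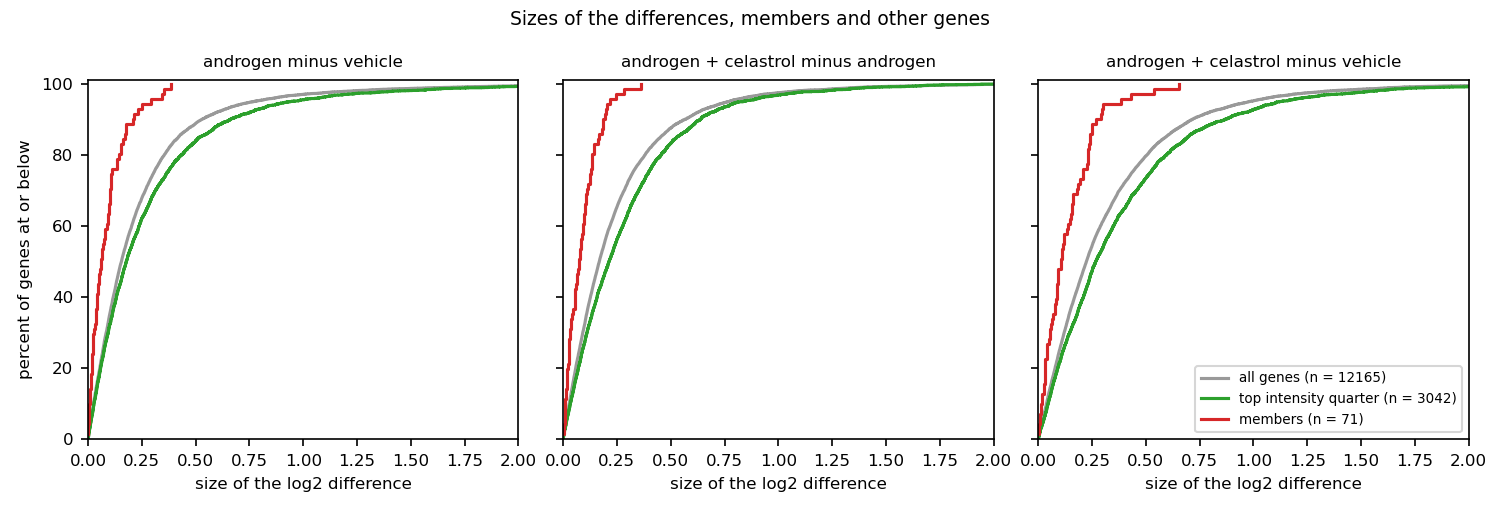
Cumulative percent of genes (vertical axis) at or below a given size of the log2 difference (horizontal axis, shown up to 2) in the 3 comparisons, for all 12165 genes (grey), the 3042 genes that are the brightest 25% (green) and the 71 members (red). The member curve lies to the left of both others and ends at 0.38, 0.36 and 0.66.

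Most of the small differences lay below 0. The median member difference was -0.04, -0.03 and -0.06 in the 3 comparisons, beside -0.04, 0.02 and -0.01 for all genes. For the brightest 25% it was 0.02, 0.01 and 0.05. With both agents against vehicle the member median was -0.16 after quantile normalization, -0.12 after cyclic loess, -0.02 after median subtraction and -0.11 without vehicle array 3. Of the 71 members 47, 44 and 49 lay below 0 (66.2%, 62% and 69%). Below 0 were also 58.0%, 46.2% and 51.8% of all genes and 46.2%, 48.1% and 45.1% of the brightest 25%. With androgen, all 3 arrays lay above vehicle for 3 members (4.23%) and below it for 15 (21.1%). Beside these stood 14.1% higher and 14.2% lower of all genes and 30.9% and 23.1% of the brightest 25%. With celastrol added, all 3 lay above androgen for 6 members (8.45%) and below it for 16 (22.5%). The shares were 20.4% and 15.5% for all genes and 35% and 28% for the brightest. With both agents against vehicle these were 5 (7.04%) and 25 members (35.2%). All genes had 20.1% and 17.1%, and the brightest 39.4% and 26.6%. The share of members lying lower was thus above that of all genes in each comparison. It was above that of the brightest 25% only with both agents. The share of members lying higher was below both in each comparison. These shares were not tested against each other.

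**Figure D2:**
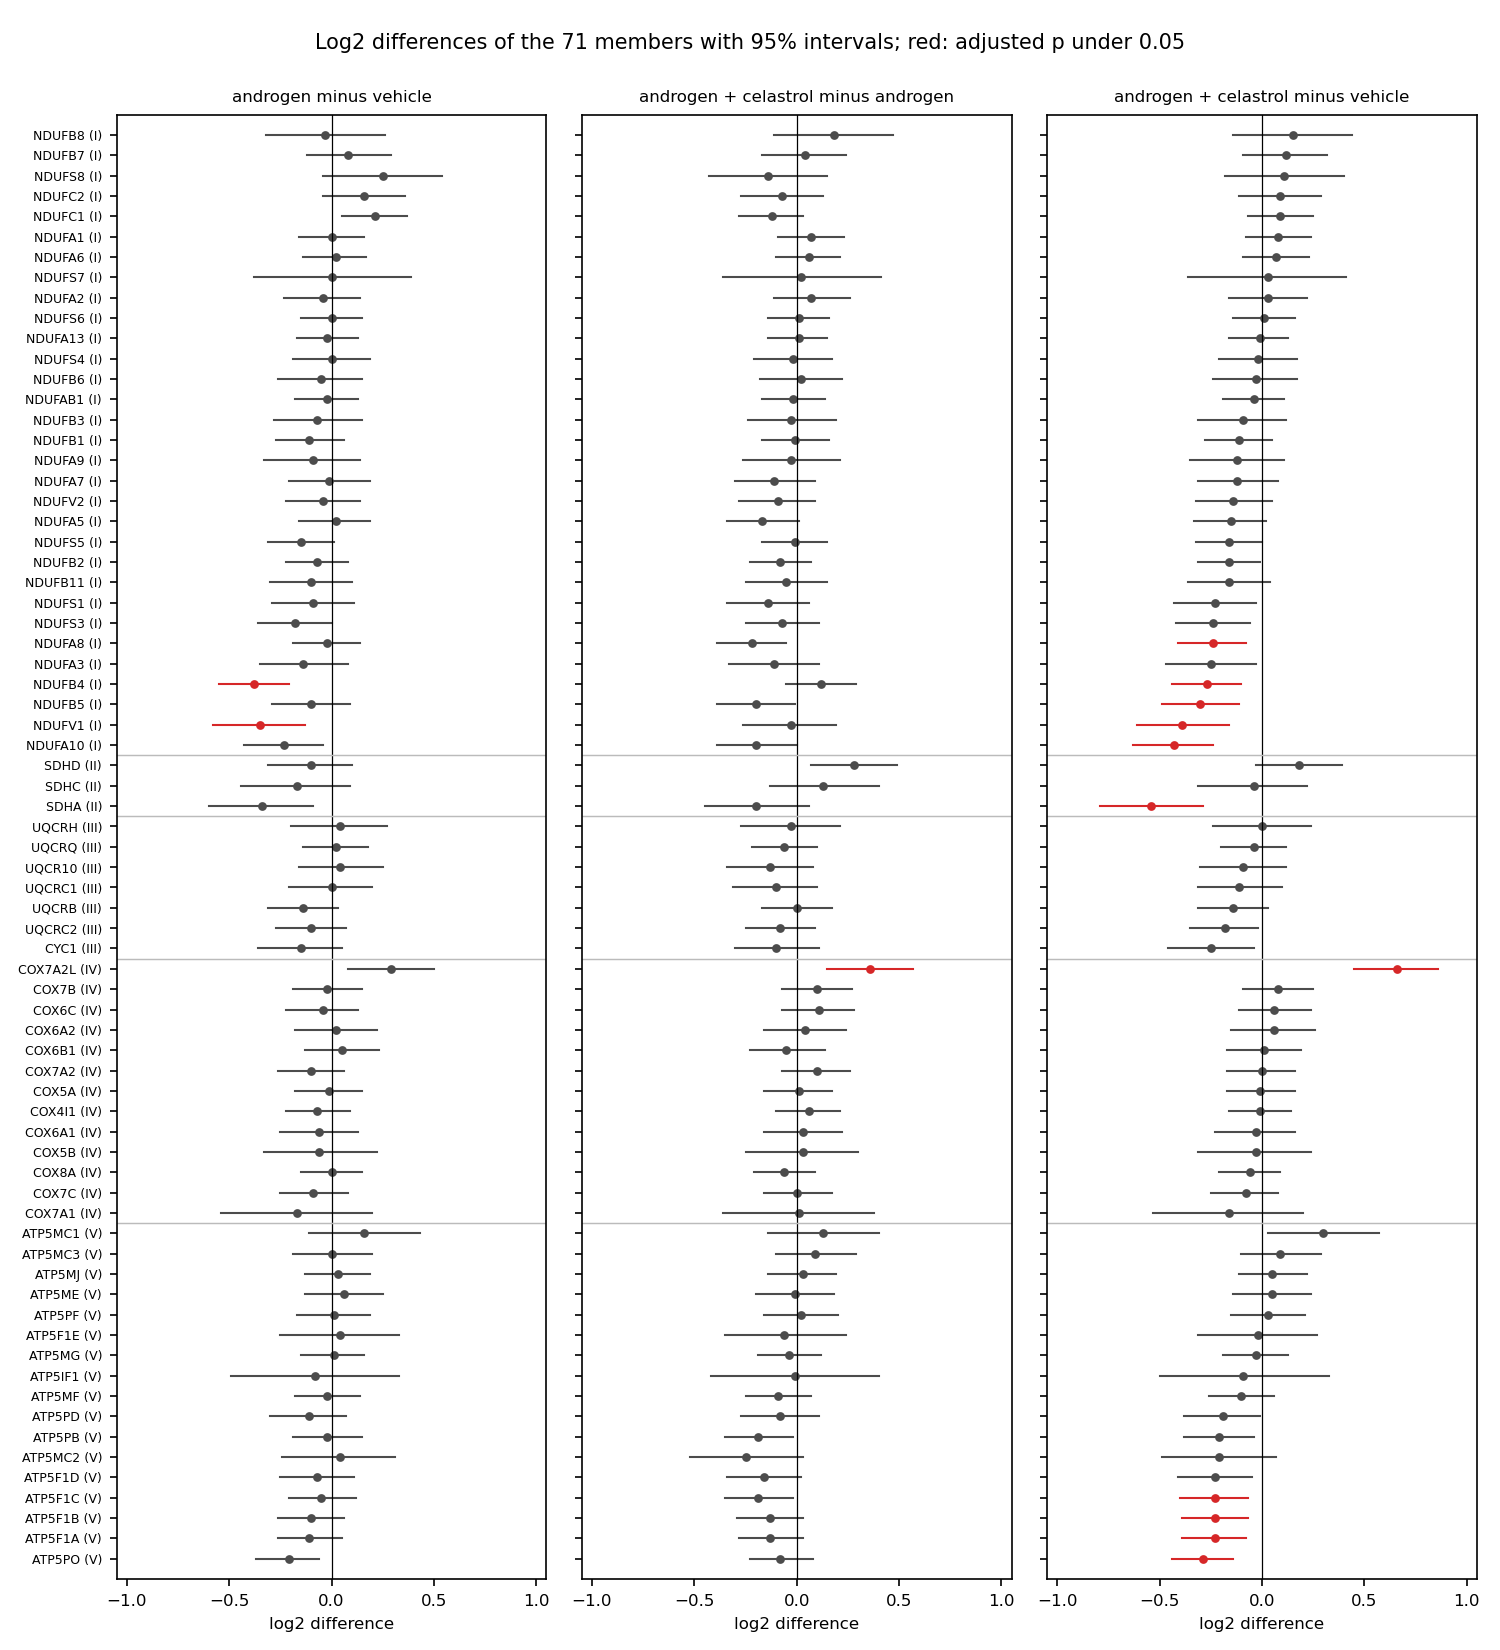
Log2 difference of each of the 71 members (rows, by complex I to V) with its 95% interval in the 3 comparisons; red marks an adjusted p under 0.05 (limma). All intervals lie inside -1 to 1, and COX7A2L is the only red point to the right of 0.

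On single arrays the median deviation of the members from their mean over all 9 arrays was 0.06, 0.08 and -0.02 on the vehicle arrays, 0.01, 0.01 and -0.02 on the androgen arrays, and -0.04, -0.07 and 0.00 on the arrays with both agents. The groups overlapped in this measure, with vehicle array 3 level with androgen array 3. Of the 71 members 21 had their own lowest value on vehicle array 3, COX7A2L, NDUFS7, NDUFS8, ATP5MC1 and ATP5IF1 among them, and as many had it on array 2 of the group with both agents (combined array 2).

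**Figure D3:**
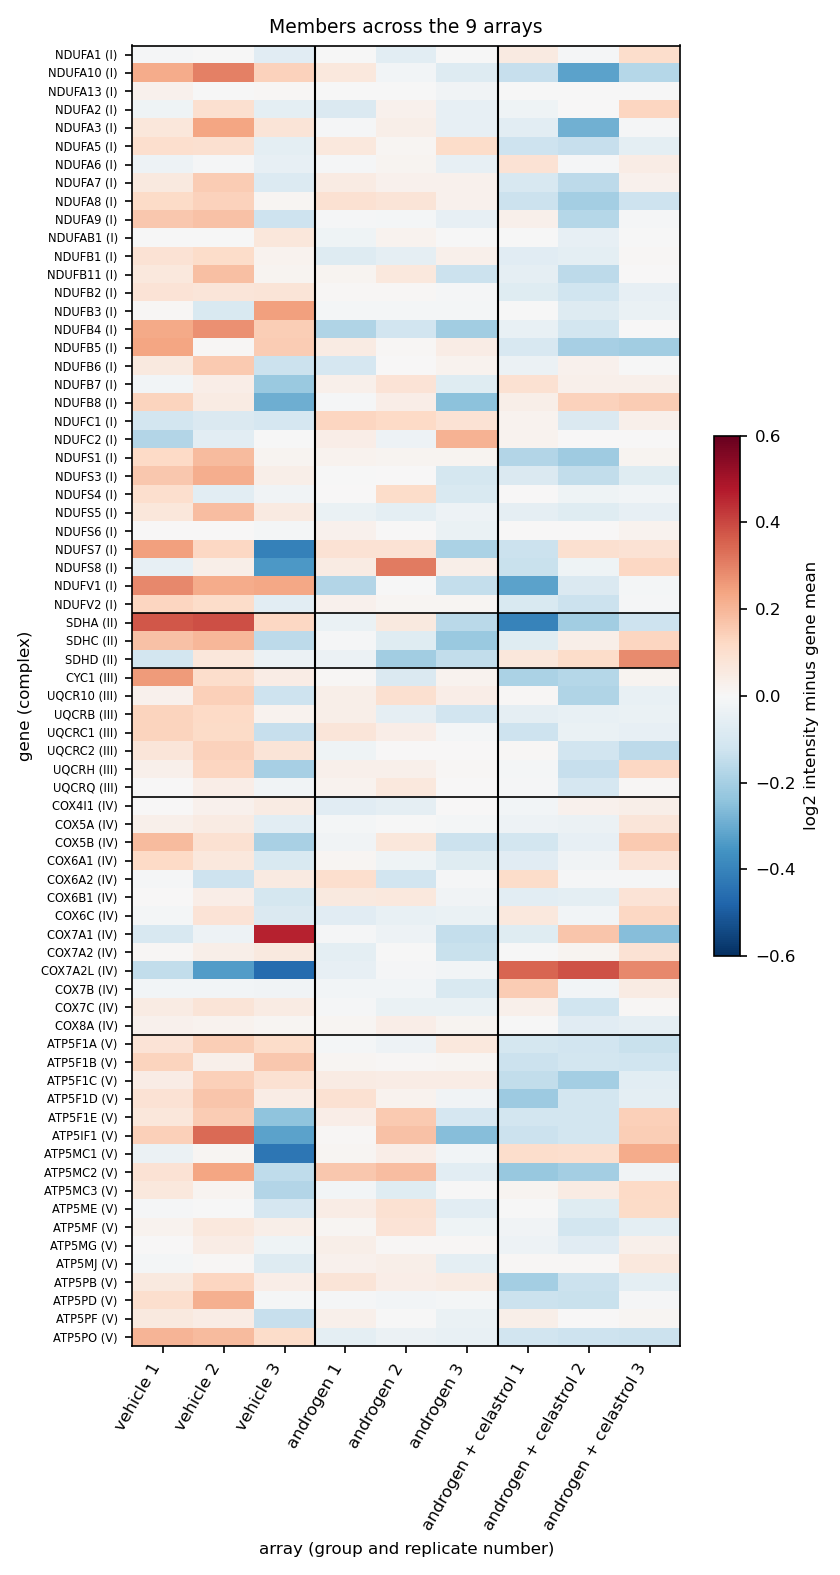
Log2 intensity of each member (rows, by complex) minus its mean over the 9 arrays (columns, 3 per group); red is above and blue below the mean, and the colour scale runs from -0.6 to 0.6. COX7A2L lies below its mean in vehicle and above it with both agents, SDHA lies the other way, and vehicle array 3 differs from the other 2 vehicle arrays in many rows.

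Complex I had both members that fell with androgen. NDUFB4, an accessory subunit of the membrane arm, read 13153.5, 13576.3 and 12447.6 on the vehicle arrays, 9920.3, 10371.0 and 9719.9 on the androgen arrays, and 10897.7, 10401.6 and 11259.6 with both agents. All 6 treated arrays lay below all vehicle arrays, and those with celastrol lay above those with androgen alone. Its difference was -0.38 ± 0.07 with androgen (adjusted p = 0.00905), 0.12 ± 0.07 with celastrol added (adjusted p = 0.386) and -0.27 ± 0.07 with both agents (adjusted p = 0.0316). The androgen call held under all 18 alternatives, with adjusted p between 0.000116 and 0.0484. NDUFB4 has only 1 probe set, so the alternatives that take another probe set left its values unchanged. The call with both agents was lost under 10, among them leaving out vehicle array 1 or 2, androgen array 1 or 3, or combined array 1 or 2 (adjusted p up to 0.146 over all alternatives).

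NDUFV1, the core subunit that binds NADH and flavin, read 2678.6, 2562.5 and 2574.0 with vehicle, 1944.5, 2190.3 and 1989.0 with androgen, and 1756.9, 2069.3 and 2175.4 with both agents. Both treated groups lay below vehicle and overlapped each other. It differed by -0.35 ± 0.10 with androgen (adjusted p = 0.0467), by -0.03 ± 0.10 with celastrol added (adjusted p = 0.883) and by -0.39 ± 0.10 with both agents (adjusted p = 0.0201). The androgen call was lost under 11 of 18 alternatives, among them the replicate block (adjusted p = 0.0772) and leaving out any array but combined array 1 (adjusted p up to 0.162). With limma fitted and adjusted over probe sets it did not pass either (adjusted p = 0.057). The call with both agents was lost under 3, among them leaving out vehicle array 1 (adjusted p = 0.0663) or combined array 1.

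NDUFA10, an accessory subunit on the matrix side, fell with both agents against vehicle. It read 1026.8, 1086.2 and 970.4 with vehicle, 919.5, 869.8 and 835.9 with androgen, and 800.8, 705.2 and 781.7 with both agents, with no overlap between any of the groups. The differences of -0.23 ± 0.09 with androgen (adjusted p = 0.132) and -0.20 ± 0.09 with celastrol added (adjusted p = 0.175) did not pass, and that of -0.43 ± 0.09 with both agents did (adjusted p = 0.00617). This call held under all 18 alternatives. NDUFB5, another membrane-arm accessory subunit, averaged 3544.0 ± 280 (SD, n = 3), 3302.9 ± 49.6 and 2872.6 ± 129 in the 3 groups and fell by 0.30 ± 0.08 with both agents (adjusted p = 0.0294). NDUFA8, an intermembrane-space accessory subunit, averaged 1988.3 ± 92.3, 1955.5 ± 47.6 and 1680.5 ± 52.6 and fell by 0.24 ± 0.07 with both agents (adjusted p = 0.0427). For both genes the arrays with celastrol lay below all androgen arrays, but the differences with celastrol added, -0.20 and -0.22, did not pass. These 2 calls were lost under 8 and 12 of the 18 alternatives, with adjusted p up to 0.187 for each. The NDUFB5 call was lost without vehicle array 1 or 3, androgen array 1 or 2, or combined array 2 or 3, and the NDUFA8 call without any array but vehicle array 3. With limma fitted and adjusted over probe sets NDUFA8 did not pass (adjusted p = 0.0561).

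The other members of complex I passed in no comparison. In all, 2, 0 and 5 of the 31 genes fell in the 3 comparisons and none rose, with 4, 3 and 9 genes at an unadjusted p under 0.05 by limma. The falls are 6.45%, 0% and 16.1% of the 31, beside 5.84%, 7.24% and 10% of all genes falling. In either direction 13%, 16.2% and 23.3% of all genes were called. The unadjusted counts are 12.9%, 9.68% and 29%, beside 23.4%, 26.8% and 34.5% of all genes. Of the core subunits 6 of 7 were measured, and NDUFV1 was the only one called. Calls were 16.7%, 0% and 16.7% of these 6 in the 3 comparisons, beside 13%, 16.2% and 23.3% of all genes. NDUFS1, NDUFS3, NDUFS7, NDUFS8 and NDUFV2, which carry iron-sulfur clusters or build the hydrophilic arm, differed by -0.24 to 0.11 with both agents against vehicle. NDUFS8 had the highest complex I difference with androgen, 0.25 ± 0.13 (adjusted p = 0.300), with 1877.0, 1991.4 and 1530.3 on the vehicle and 2007.5, 2409.5 and 1992.3 on the androgen arrays. NDUFC1, an accessory subunit, read 3560.0, 3608.8 and 3576.7 with vehicle and 4191.7, 4166.8 and 4078.7 with androgen. These NDUFC1 groups did not overlap, and the difference of 0.21 ± 0.07 did not pass (adjusted p = 0.0925). NDUFS6 and NDUFS4 differed by no more than 0.02 in any comparison, with intervals inside -0.21 to 0.19.

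**Figure D4:**
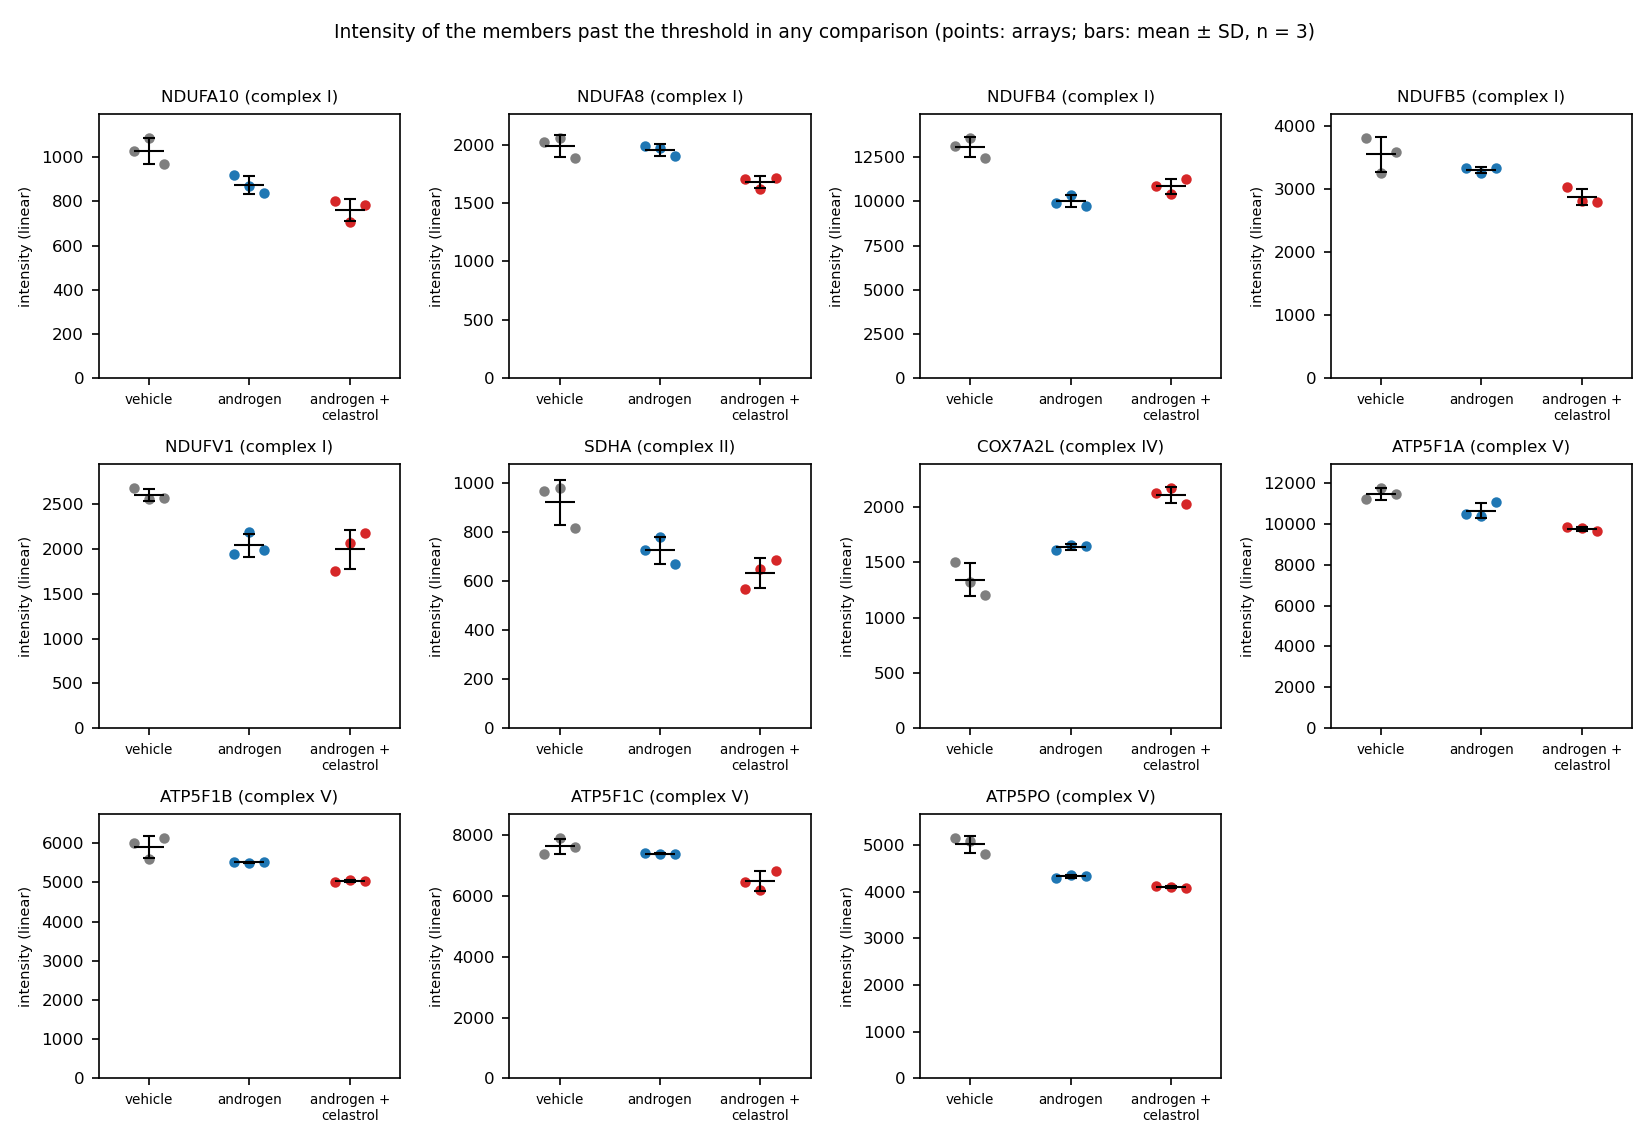
Linear intensity (vertical axes, from 0) of the 11 members past the threshold in at least 1 comparison; points are arrays and bars mean ± SD (n = 3). COX7A2L is highest with both agents, and the other 10 genes are lower with both agents than with vehicle.

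Of the 3 measured subunits of complex II, only SDHA passed the test, and in 1 comparison. Calls were 0%, 0% and 33.3% of these 3 genes, beside 13%, 16.2% and 23.3% of all genes. With both agents 46.3% of the brightest 25% of genes were called. SDHA, the flavoprotein that oxidises succinate, read 969.7, 980.2 and 817.9 with vehicle, 728.7, 780.2 and 669.5 with androgen, and 567.1, 649.5 and 687.2 with both agents. Its vehicle arrays lay above all 6 treated arrays, and the treated groups overlapped. SDHA fell by 0.54 ± 0.11 with both agents (adjusted p = 0.00753), the largest fall of the set, and this call held under all 18 alternatives. The differences of -0.34 ± 0.11 with androgen (adjusted p = 0.0857) and -0.20 ± 0.11 with celastrol added (adjusted p = 0.319) did not pass. Its only probe set is of the _x_at type, whose probes can match other transcripts, and SDHA has closely similar pseudogene copies, so that its value is uncertain to that extent.

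SDHC and SDHD form the membrane anchor and bind haem and ubiquinone. SDHD read 670.3, 757.3 and 704.9 with vehicle, 704.9, 625.2 and 652.8 with androgen, and 758.2, 779.6 and 880.0 with both agents. The arrays with celastrol lay above all others, and the difference of 0.28 ± 0.09 over androgen did not pass (adjusted p = 0.0734). SDHC read 3583.8, 3643.0 and 2851.2, then 3157.3, 3017.6 and 2717.6, then 3024.0, 3251.1 and 3472.2, with overlap between all groups. Its differences of -0.17 ± 0.12, 0.13 ± 0.12 and -0.04 ± 0.12 did not pass.

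None of the 7 measured members of complex III rose or fell in any comparison. At an unadjusted p under 0.05 limma found 0, 0 and 2 of them. These are 0%, 0% and 28.6%, beside 23.4%, 26.8% and 34.5% of all genes. CYC1, cytochrome c1, had the widest difference, -0.25 ± 0.09 with both agents against vehicle (adjusted p = 0.0859), with 2310.0, 2082.3 and 1997.8 on the vehicle arrays and 1695.5, 1721.9 and 1956.5 on those with both agents. Those groups did not overlap. The core protein UQCRC2 differed by -0.18 ± 0.07 (adjusted p = 0.113) and UQCRC1 by -0.11 ± 0.09 (adjusted p = 0.436) in the same comparison. The ubiquinone-site subunit UQCRB had 0.00 ± 0.07 with celastrol added, and the hinge protein UQCRH had 0.00 ± 0.11 with both agents. Every complex III interval lay inside -0.5 to 0.5.

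Complex IV held the 1 member that rose. COX7A2L, also called SCAFI, resembles the COX7A isoforms and is known for joining complexes III and IV into supercomplexes, so that the name places it here while its role is in assembly. It read 1499.2, 1318.9 and 1206.1 with vehicle, 1609.0, 1655.6 and 1646.0 with androgen, and 2120.9, 2167.2 and 2029.2 with both agents. No 2 groups overlapped, vehicle being lowest and both agents highest. COX7A2L rose by 0.66 ± 0.09 with both agents (adjusted p = 0.000941), the largest difference of any member, and by 0.36 ± 0.09 with celastrol added (adjusted p = 0.0272). The difference of 0.29 ± 0.09 with androgen did not pass (adjusted p = 0.0752). The call with both agents held under all 18 alternatives, with adjusted p between 6.46e-05 and 0.00846, and the difference was 0.58 without vehicle array 3. The call for celastrol over androgen was lost when any 1 of the 6 compared arrays was left out, with adjusted p up to 0.092 and a difference between 0.33 and 0.39.

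Calls made up 0%, 7.69% and 7.69% of the 13 complex IV genes in the 3 comparisons, beside 13%, 16.2% and 23.3% of all genes. At an unadjusted p under 0.05 limma found 1 in each (7.69%), beside 23.4%, 26.8% and 34.5% of all genes. The catalytic subunits of complex IV are encoded in mitochondrial DNA, and the 12 other nuclear members, which surround them, did not pass in any comparison. Their differences lay between -0.17 and 0.11, with COX8A at 0.00 ± 0.07 and COX7B at -0.02 ± 0.07 for androgen, and COX5A at 0.01 ± 0.07 for celastrol added. Both the ubiquitous and the muscle form of COX6A and of COX7A were measured. COX6A1 averaged 9761.0 ± 736, 9337.2 ± 280 and 9533.6 ± 514 (SD, n = 3) in the 3 groups, and COX6A2 36.2 ± 2.24, 36.6 ± 2.75 and 37.6 ± 1.75. COX7A2 averaged 4651.1 ± 84.7, 4341.8 ± 199 and 4648.9 ± 151, and COX7A1 43.3 ± 9.66, 37.9 ± 1.88 and 38.3 ± 5.67. The single COX7A1 value of 54.4 on vehicle array 3 stood above its other 8 values of 33.1 to 44.3. COX4I1, COX6B1, COX7B and COX8A were measured, and their testis or lung isoforms COX4I2, COX6B2, COX7B2 and COX8C were not analysed here. COXFA4, formerly NDUFA4 and now counted with complex IV, has a symbol outside the naming rule; it differed by -0.05, -0.01 and -0.06 and did not pass. Its paralog COXFA4L2 read 53.2, 97.1 and 67.5 with both agents and 53.2, 41.2 and 45.4 with androgen, a difference of 0.60 ± 0.21 that did not pass (adjusted p = 0.094).

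In complex V the falls lay in the catalytic head and the peripheral stalk. The 4 falls of complex V with both agents are 23.5% of its 17 genes. Among all genes 10% fell there and 23.3% were called in either direction, as were 46.3% of the brightest 25%. Of the 5 subunits of the F1 head, 3 (60%) fell with both agents against vehicle, and none passed in the other 2 comparisons. In these limma found 0 and 1 at an unadjusted p under 0.05 (0% and 20%), beside 23.4% and 26.8% of all genes. ATP5F1A (alpha) read 11199.8, 11743.1 and 11443.6 with vehicle, 10500.7, 10372.8 and 11075.1 with androgen, and 9842.6, 9778.1 and 9656.4 with both agents. ATP5F1B (beta, which holds the catalytic sites) read 5994.5, 5582.8 and 6120.9, then 5508.3, 5499.0 and 5511.0, then 5002.2, 5070.0 and 5038.7. ATP5F1C (gamma, the rotating shaft) read 7379.5, 7893.7 and 7611.1, then 7409.0, 7379.5 and 7379.5, then 6446.2, 6198.0 and 6836.1. In each of these genes the arrays with both agents lay below all 6 others. Each fell by 0.23 ± 0.07, with adjusted p of 0.0398, 0.0462 and 0.0483. These calls stood just inside the threshold and were lost under 14, 12 and 14 of the 18 alternatives, among them the replicate block (adjusted p of 0.0814, 0.0877 and 0.0907) and leaving out any 1 array, except that the ATP5F1B call held without vehicle array 2. ATP5F1C was read from a probe set of the _x_at type, and its 3 other probe sets, 2 of them of that type, differed by -0.18, -0.18 and -0.08 without passing (adjusted p = 0.368, 0.156 and 0.777 over probe sets). With limma fitted and adjusted over probe sets, the brightest probe sets of ATP5F1A, ATP5F1B and ATP5F1C did not pass either (adjusted p = 0.0534, 0.0612 and 0.063).

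ATP5F1D (delta) differed by the same -0.23 ± 0.08 without passing (adjusted p = 0.0690), and ATP5F1E (epsilon) by -0.02 ± 0.13 (adjusted p = 0.935). In the peripheral stalk, which holds the head still, ATP5PO read 5140.6, 5090.3 and 4809.2 with vehicle, 4290.1, 4360.6 and 4331.4 with androgen, and 4122.2, 4098.6 and 4079.5 with both agents, with no overlap between groups. ATP5PO fell by 0.29 ± 0.07 with both agents (adjusted p = 0.0140), and its difference of -0.21 ± 0.07 with androgen did not pass (adjusted p = 0.0816). A second, dimmer ATP5PO probe set of the _x_at type had 0.01 ± 0.21 (adjusted p = 0.985), so that the 2 probe sets of this gene did not give the same call. The ATP5PO call held under 13 of the 18 alternatives. It was lost without vehicle array 1, with only the compared groups fitted, with the array median subtracted and with the mean of probe sets. On the lowest probe set the difference turned sign. ATP5PB, another stalk subunit, differed by -0.21 ± 0.07 (adjusted p = 0.0748), ATP5PD by -0.19 ± 0.08 (adjusted p = 0.135) and ATP5PF by 0.03 ± 0.08 (adjusted p = 0.832).

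The 3 genes for the identical c subunit of the membrane ring, which differ in their import peptides, did not pass in any comparison, with 0, 0 and 1 at an unadjusted p under 0.05 by limma. That 1 gene is 33.3% of the 3, beside 34.5% of all genes. ATP5MC1 read 912.3, 942.3 and 692.5 with vehicle and 1005.3, 1004.5 and 1090.6 with both agents, a difference of 0.30 ± 0.12 (adjusted p = 0.113). ATP5MC2 had -0.21 ± 0.12 (adjusted p = 0.262) and ATP5MC3 0.09 ± 0.09 (adjusted p = 0.470) in that comparison. These values lay on either side of 0, and no difference between the 3 genes was tested. The 4 membrane accessory subunits ATP5ME, ATP5MF, ATP5MG and ATP5MJ lay between -0.10 and 0.06 in all comparisons, and none of them had an unadjusted p under 0.05. A second ATP5MJ probe set rose by 0.31 ± 0.08 with both agents (adjusted p = 0.0271 over probe sets), where the brighter one had 0.05 ± 0.07. Of 31 such further probe sets, of 21 members, this was the only one called in any comparison. The share called over all probe sets was not counted, and some of these probe sets are dim. The count therefore gives no result about the members. ATP5IF1, the inhibitor of ATP synthase, had the widest error of the set and differed by -0.08 ± 0.18, -0.01 ± 0.18 and -0.09 ± 0.18.

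Other genes of oxidative metabolism were read beside the subunits, from lists of pathway members. Of 15 genes of pyruvate dehydrogenase and the citric acid cycle, 20%, 20% and 33.3% were called in the 3 comparisons, beside 13%, 16.2% and 23.3% of all genes and 27.7%, 33.8% and 46.3% of the brightest 25%. With androgen 3 rose: DLST (0.69 ± 0.18, adjusted p = 0.0352) and OGDH (0.49 ± 0.12, adjusted p = 0.0235), both of the 2-oxoglutarate dehydrogenase complex, and IDH3A (0.39 ± 0.10, adjusted p = 0.0320), of isocitrate dehydrogenase. With celastrol added 3 fell, OGDH by 0.64 ± 0.12 (adjusted p = 0.00570), PDHB of pyruvate dehydrogenase by 0.50 ± 0.08 (adjusted p = 0.00284) and SUCLG2 of succinyl-CoA ligase by 0.41 ± 0.08 (adjusted p = 0.00805). With both agents PDHX rose and PDHB, SUCLG2, CS (citrate synthase) and MDH2 (malate dehydrogenase) fell. The list medians were -0.03, -0.21 and -0.13, beside member medians of -0.04, -0.03 and -0.06. PDHB read 4581.6, 4601.4 and 4268.7 with vehicle, 4230.2, 4164.6 and 3984.8 with androgen, and 2919.2, 2769.0 and 3095.2 with both agents, with the celastrol arrays below all others.

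Assembly factors, which build the complexes without staying in them, differed by -1.12 to 1.03 with androgen. Of 31 measured factors 2 rose and 2 fell with androgen, 2 rose and 1 fell with celastrol added, and 6 rose and 4 fell with both agents. These are 12.9%, 9.68% and 32.3% of the factors, beside 13%, 16.2% and 23.3% of all genes. Among the brightest 25% of genes 27.7%, 33.8% and 46.3% were called. NDUFAF4, a complex I factor, read 1821.8, 1829.5 and 1538.0 with vehicle, 811.0, 775.7 and 789.1 with androgen, and 920.3, 934.5 and 917.5 with both agents. It fell by 1.12 ± 0.09 with androgen (adjusted p = 4.57e-05). CMC2, a complex IV factor, read 2274.1, 2315.4 and 2181.1, then 4632.1, 4655.0 and 4568.2, then 3606.7, 3606.7 and 3772.9. It rose by 1.03 ± 0.07 with androgen (adjusted p = 1.89e-05) and fell by 0.33 ± 0.07 with celastrol added (adjusted p = 0.0104). COX17, the copper chaperone of complex IV, rose by 0.45 ± 0.07 with androgen, and UQCC1, a complex III factor, fell by 0.51 ± 0.14. NDUFAF1 (0.46 ± 0.09) and SURF1 (0.33 ± 0.07), factors of complexes I and IV, rose with celastrol added.

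Of 7 measured regulators 1 was called in each comparison (14.3%), beside 13%, 16.2% and 23.3% of all genes. NRF1 mRNA read 97.3, 91.5 and 88.2 with vehicle, 72.7, 70.3 and 58.7 with androgen, and 81.2, 88.4 and 92.3 with both agents. The androgen arrays lay below all others. NRF1 fell by 0.46 ± 0.10 with androgen (adjusted p = 0.0174) and rose by 0.38 ± 0.10 with celastrol added (adjusted p = 0.0360), at a dim probe set. PPARGC1A read 24.8 to 28.2 on all arrays and differed by 0.08, -0.06 and 0.02. PPRC1, a PGC-1-related coactivator, rose by 0.55 ± 0.15 with both agents (adjusted p = 0.0274). TFAM, which packages and transcribes mitochondrial DNA, fell by 0.36 ± 0.10 with both agents (adjusted p = 0.0341) and was 1 of 2 that fell among 16 genes of mitochondrial DNA maintenance, transcription and translation, the other being POLG2. These 2 are 12.5% of that list, beside 10% falling and 23.3% called in either direction among all genes. CYCS, cytochrome c, averaged 6715.4 ± 371, 7105.3 ± 162 and 6896.2 ± 37.2 and did not pass.

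**Figure D5:**
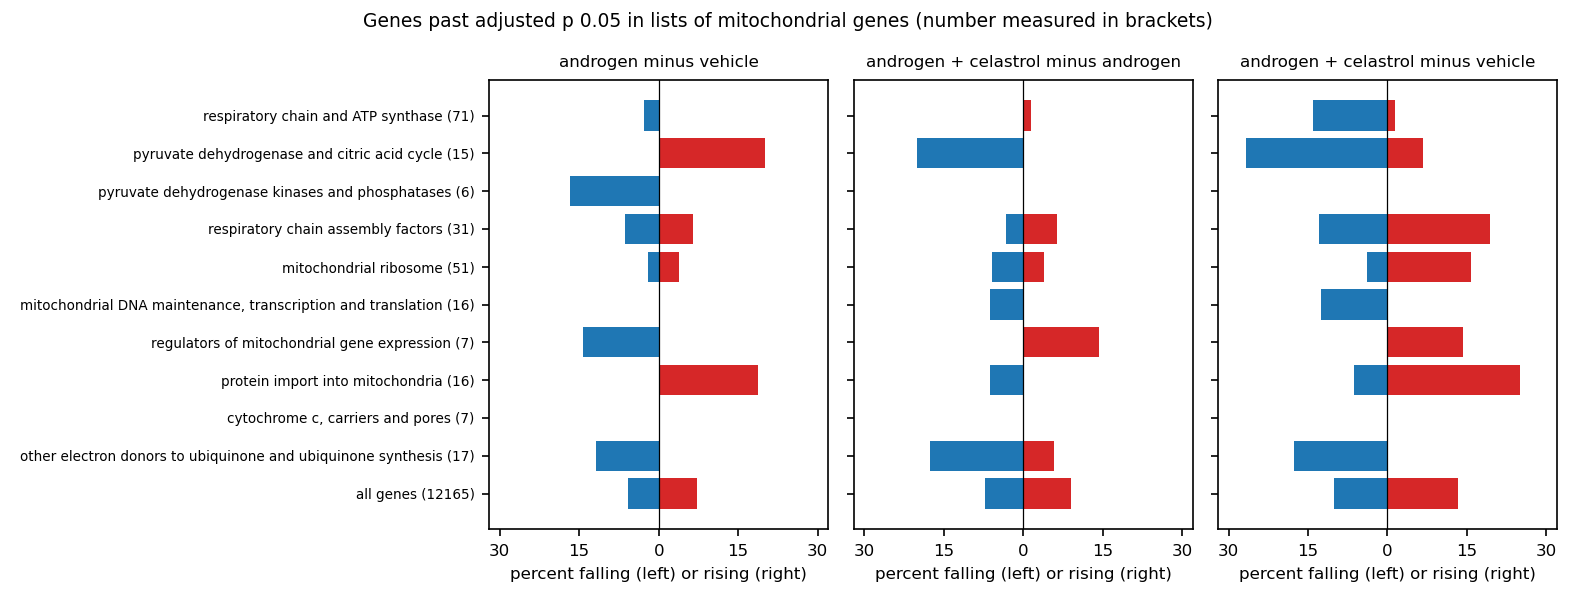
Percent of measured genes of each list (number in brackets) that rose (red, right of 0) or fell (blue, left of 0) at an adjusted p under 0.05 by limma in the 3 comparisons. The respiratory chain and ATP synthase bars show 2 falls, 1 rise, and 1 rise with 10 falls; the smallest lists hold 6 and 7 genes, where 1 gene is a wide bar.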

How the data were processed

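The authors deposited linear intensities for 9 arrays, which RMA produced according to the submitters' processing notes; its version is not given in the sources used here. Of 22215 probe sets 19724 name 1 gene, and each of 12165 current symbols was read from its brightest probe set on the log2 scale with a pseudocount of 0. All 9 arrays were fitted with limma 3.58.1 in R 4.3.3 (6 residual and 2.7 prior degrees of freedom). The fit was tested on simulated data. Members and lists were chosen with earlier results of these data known, and the background of bright genes after seeing the values. Named were the members called, all of complex II and of the isoform families, the widest and narrowest differences per complex, and up to 3 rises and falls per other list; other members named, such as NDUFC1 and the stalk subunits, were chosen after their values were seen. Same-numbered vehicle and androgen arrays deviated together (correlations 0.40, 0.37 and 0.63), but vehicle array 2 did so more with androgen array 1 (0.41). They count as paired for that comparison by the rule used, over 0.1 in every pair. The fit printed has no block, which is an alternative. Those of the other 2 comparisons were not (-0.29 to 0.21). Array number limits the precision.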

Additional observations from a re-analysis of the deposited data

How the results depend on the processing

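Each result was recomputed under 18 alternatives, 9 of them leaving out 1 array. Of 14 calls of members 4 held under all (NDUFB4 with androgen, and NDUFA10, SDHA and COX7A2L with both agents). Each of these 4 genes has only 1 probe set, so the choice of probe set could not be varied for them. Of 3828 single member values 3668 stayed on their side of the threshold, 94 lost and 65 gained a call, and 1 called value turned sign, ATP5PO with both agents against vehicle, at 0.01 on its lowest probe set. Of the values not called at first, 251 had the other sign under an alternative. The count of members falling with androgen, 2, was 1 with the replicate block, with the array median subtracted and with the lowest probe set, and 5 with quantile normalization, cyclic loess, and trend and robust eBayes; the last gave 2 rising. Leaving out arrays gave 1 to 3 falling and 0 to 1 rising (1 without vehicle array 1). With celastrol added to androgen, the falls, 0, were 3 with quantile normalization, 1 with cyclic loess and 5 with trend and robust eBayes, which gave 2 rising; leaving out arrays gave 0 to 1 rising and 0 to 1 falling (1 without vehicle array 3). With both agents against vehicle, the falls, 10, were 5 with the replicate block, 2 with only the compared groups fitted, 3 with the array median subtracted, 22 with quantile normalization, 20 with cyclic loess, 4 with the lowest probe set, 20 with trend and robust eBayes, and 2 to 7 without 1 array (2 without vehicle array 1, 4 without androgen array 1 or combined array 1 or 2). The rises, 1, were 2 with the array median subtracted and 2 with the lowest probe set. The median there, -0.06, was -0.02 with the array median subtracted, -0.16 with quantile normalization, -0.12 with cyclic loess, and -0.11 to -0.04 without 1 array. The causes were not tested. The block changed no call of a member other than NDUFV1 with androgen and NDUFB4, NDUFA8, ATP5F1A, ATP5F1B and ATP5F1C with both agents. Of the members not called, 6, 6 and 15 were called under some alternative. Values that several arrays share exactly were found in 37 of 71 members (52.1%) beside 41.9% of all genes and 25.3% of the brightest 25%; these ties run within and between groups. With 3 arrays a group, differences of the size of the member medians could not be resolved gene by gene.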

Other observations

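The TOMM and TIMM genes encode the machinery that brings proteins into mitochondria. Of 16 measured, 18.8%, 6.25% and 31.2% were called by limma in the 3 comparisons, beside 13%, 16.2% and 23.3% of all genes. Among the brightest 25% of genes 27.7%, 33.8% and 46.3% were called. With androgen 3 rose: TIMM10B (0.90 ± 0.19, adjusted p = 0.0142), TIMM8A (0.59 ± 0.16, adjusted p = 0.0369) and TIMM17A (0.34 ± 0.07, adjusted p = 0.0166), of the inner membrane and intermembrane space. TOMM34, a cytosolic cochaperone, fell by 0.61 ± 0.14 with celastrol added (adjusted p = 0.0204), from 263.2, 282.2 and 263.2 to 143.7, 183.9 and 208.0. With both agents against vehicle 4 of the 16 rose and 1 fell. Of 51 genes of the mitochondrial ribosome 2 rose and 1 fell with androgen, 2 rose and 3 fell with celastrol added, and 8 rose and 2 fell with both agents. These are 5.88%, 9.8% and 19.6% of the list, below the shares of all genes in each comparison, a difference that was not tested. MRPS18A read 464.1, 485.2 and 335.6 with vehicle and 1147.4, 1116.4 and 1126.0 with androgen, a rise of 1.42 ± 0.14 (adjusted p = 0.000199). MRPL42 rose by 0.56 ± 0.09 with androgen (adjusted p = 0.00406) and fell by 0.82 ± 0.09 with celastrol added (adjusted p = 0.000609).

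Of 17 genes that feed electrons to ubiquinone by other routes or make ubiquinone, 11.8%, 23.5% and 17.6% were called in the 3 comparisons. The shares of all genes were 13%, 16.2% and 23.3%, and those of the brightest 25% were 27.7%, 33.8% and 46.3%. SQOR, which oxidises sulfide, read 2479.1, 2417.0 and 2518.0 with vehicle, 1192.2, 1253.4 and 1100.5 with androgen, and 2325.8, 2286.4 and 2113.4 with both agents. SQOR fell by 1.07 ± 0.08 with androgen (adjusted p = 4.05e-05) and rose by 0.92 ± 0.08 with celastrol added (adjusted p = 0.000141). ETFB of the electron transfer flavoprotein fell by 0.63 ± 0.12 with androgen (adjusted p = 0.00914), and its partner ETFA fell by 0.29 ± 0.08 with celastrol added (adjusted p = 0.0396). COQ2 (0.54 ± 0.12) and PDSS1 (0.45 ± 0.10), enzymes of ubiquinone synthesis, fell with celastrol added, with adjusted p of 0.0177 and 0.0160. Of 7 genes for cytochrome c, carriers and pores none passed in any comparison. At an unadjusted p under 0.05 limma gave 0, 2 and 1. These are 0%, 28.6% and 14.3%, beside 23.4%, 26.8% and 34.5% of all genes. Of 6 pyruvate dehydrogenase kinases and phosphatases PDP1 fell by 0.42 ± 0.11 with androgen (adjusted p = 0.0339), and PDK4 read 30.2 to 42.4 and did not pass. PDP1 was the only call of that list, 16.7% with androgen beside 13% of all genes, and none passed in the other 2 comparisons.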
